A study of Mus musculus with 2 samples.

Results

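Synaptic vesicle release and recycling genes are a set of 36 genes, named by symbol, that encode the proteins with which a nerve terminal stores, docks, fuses and retrieves its transmitter vesicles. All 36 were found among the 32285 genes of both count tables, and 34 had enough counts to be tested. Cplx3 and Doc2b were the other two. The set was chosen by function, not by a measured value. The series holds single cells of the wild-type mouse pallium, the dorsal forebrain that includes the cerebral cortex, as a single group with 2 libraries, replicate 1 and replicate 2. Embryos were given EdU, a thymidine analogue that marks cells making DNA, on embryonic day 12 (E12), and the tissue was taken on postnatal day 3 (P3) and pooled. Living cells (negative for propidium iodide, PI) within the brightest 10% of the EdU signal were sorted, so every cell compared here passed the same sort. Both libraries were made with droplet capture that counts transcripts near their ends as unique molecular identifiers (UMIs).

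Regulated secretion of transmitter rests on a SNARE complex formed by Snap25 and Stx1a (syntaxin) on the plasma membrane and a vesicular synaptobrevin, Vamp1 or Vamp2. Priming factors and active zone scaffolds place the vesicle at the membrane, complexins hold and then help fusion, NSF and its SNAP adaptors take the spent complex apart, and dynamin, endophilin, synaptojanin and amphiphysin retrieve the membrane. Neurons make this machinery as they build axons and terminals. Oligodendrocyte precursor cells (OPCs), the dividing glia that give rise to myelinating cells, receive synapses from neurons, and several of these genes are known to be transcribed in them as well.

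Cells were sorted into 7 groups by marker genes outside the set, each needing at least 2 UMIs of its own marker, at least 1 UMI over a short list of companion genes and fewer than 2 UMIs of the other markers. The markers were Pdgfra for OPCs, Aqp4 for astroglia, Neurod2 with Neurod6 for glutamatergic neurons, Reln for Cajal-Retzius cells (early neurons of the cortical surface), Sp8 for neuroblasts, Sst for interneurons and Adarb2 for other GABAergic cells. Group names below are shorthand for cells that met these rules. Reln was exempt from the rule on other markers, because interneurons make it too. Glutamatergic neurons and Cajal-Retzius cells also needed fewer than 2 UMIs of Gad1 and Gad2 together. Replicate 1 contributed 6769 grouped cells and replicate 2 contributed 6977, or 60.3% and 63.6% of the cells that passed the filters. OPCs were the largest group with 3749 and 3855 cells, followed by astroglia (1534 and 1524), glutamatergic neurons (783 and 860), neuroblasts (414 and 464), Adarb2 cells (183 and 165) and Cajal-Retzius cells (81 and 89). Only 25 and 20 Sst interneurons were found, with 93306 and 121065 UMIs in all, so their levels carry the largest counting error.

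The groups were checked against genes the rules did not use, apart from Slc17a7, a companion gene in the rule for glutamatergic neurons. Sst interneurons held Npy at 32956 and 24094 CPM (UMIs of a gene scaled to the group's total UMIs, as for all levels below), and Cajal-Retzius cells held Ndnf at 2490 and 2712 CPM. In glutamatergic neurons Slc17a7, the vesicular glutamate transporter of mature cortical neurons, stood at only 4.5 and 4.7 CPM. Adarb2 marks interneurons from the caudal ganglionic eminence, but these cells held Pbx3 at 437 and 514 CPM and Tshz1 at 317 and 467 CPM, genes of olfactory bulb neuroblasts. A list of 6 markers of caudal interneurons summed to 455 and 438 CPM in them, against 99.3 and 97.8 CPM in neuroblasts and 195 and 193 CPM in glutamatergic neurons. Cajal-Retzius cells held more of this list, at 583 and 696 CPM. Cnr1 (207 and 186 CPM), Prox1 (77.3 and 113 CPM), Htr3a (32.8 and 29.8 CPM) and Vip (3.51 and 1.19 CPM) were highest in Adarb2 cells among the 7 groups. Nr2f2 and Npas1, the rest of the list, were not both highest there. Since genes of caudal interneurons and of olfactory bulb neuroblasts were both present, the group is called Adarb2 cells, by its rule. In replicate 1 Adarb2 cells also held 354 CPM over 6 microglial markers, against 1.19 CPM in replicate 2. The same markers summed to 98.2 and 277 CPM in glutamatergic neurons, 115 and 118 CPM in astroglia and 87.7 and 47.1 CPM in OPCs. They did not exceed 40.5 CPM in neuroblasts, Cajal-Retzius cells or Sst interneurons. The part of these transcripts in the results was not tested. Among cells passing the filters, 40 barcodes occurred in both libraries.

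Microglia, gated on C1qa after the data had been seen (129 and 142 cells), are given below beside the glia as cells that should lack neuronal release genes. Low Neurod2 in OPCs and astroglia was part of their rules and gives no measure of free neuronal RNA.

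Summed over all 36 genes, the level differed several-fold between the groups and little between the libraries. Astroglia were lowest, with 539 CPM in replicate 1 and 555 CPM in replicate 2. Neuroblasts held 771 and 806 CPM, and OPCs 1117 and 1186 CPM. OPCs thus lay above the neuroblasts in both libraries.

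Higher sums were found in the other neurons. Adarb2 cells reached 1516 and 1488 CPM, and glutamatergic neurons 1949 and 2026 CPM. Sst interneurons held 2958 and 3007 CPM and Cajal-Retzius cells 3598 and 3882 CPM. No neighbours in this order overlapped between libraries. The mean was 1151 ± 49.0 CPM in OPCs and 547 ± 11.8 CPM in astroglia (SD, n = 2), a ratio of 2.10. With 2 libraries no permutation test of a single value can reach 0.05, so these sums are given as a description. The place of the Sst interneurons depended on their gate, since their mean fell from 2982 to 1782 CPM when 1 UMI of a marker was enough. Leaving out Rab3a, the most abundant member in glutamatergic neurons and Cajal-Retzius cells, kept the order, with 1082 CPM in OPCs, 508 in astroglia, 1550 in glutamatergic neurons and 2980 in Cajal-Retzius cells.

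**Figure D1:**
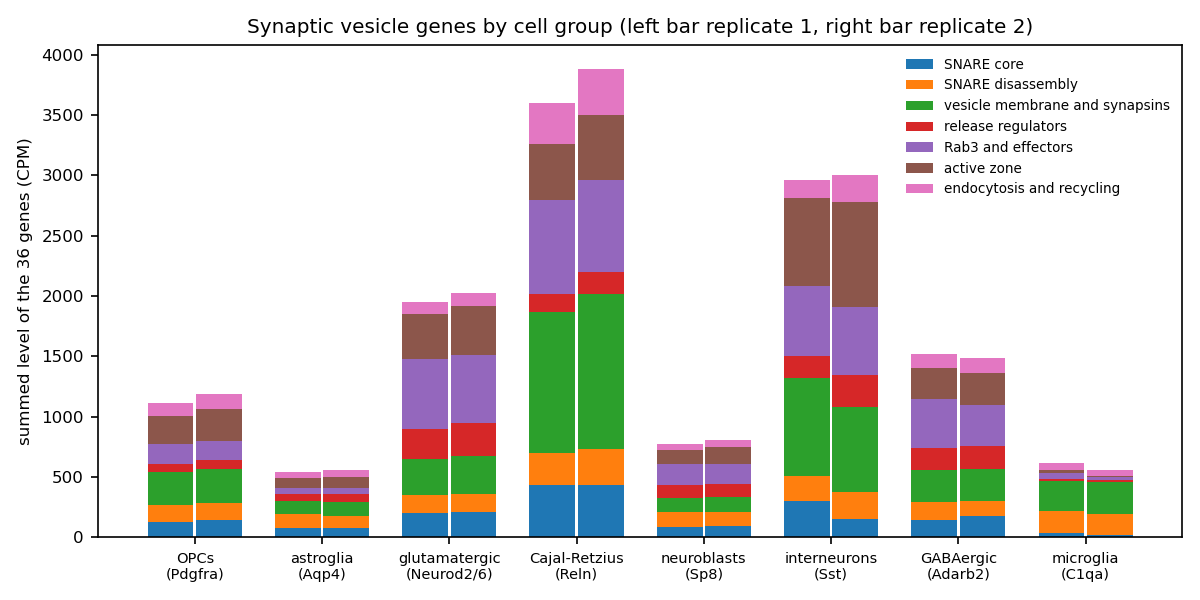
Summed level of the 36 synaptic vesicle genes in CPM (linear axis from 0) for the 7 cell groups and the microglia, with replicate 1 as the left bar and replicate 2 as the right bar of each pair, and colours for the roles of the genes. Cajal-Retzius cells are highest at 3598 and 3882 CPM and astroglia lowest of the 7 at 539 and 555 CPM.

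The roles contributed unequally. Active zone genes summed to 231 and 259 CPM in OPCs, 78.5 and 87.8 CPM in astroglia and 20.6 and 12.6 CPM in microglia. The microglial sum of all members, 618 and 557 CPM, came mostly from Syngr1, at 34.0% and 44.9% of it, and from Napa, at 22.7% and 23.0%. Napa, Nsf and Synj1 serve membrane traffic in many cells, so a summed level alone does not mark a secretory neuron.

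Single cells gave the same order of groups when all were reduced to an equal depth. After thinning to 2000 UMIs, with shallower cells left out, an OPC showed a mean of 2.21 members in replicate 1 and 2.29 in replicate 2, an astroglial cell 1.04 and 1.08, and a glutamatergic neuron 3.31 and 3.32. Cajal-Retzius cells showed 5.70 and 5.69, Sst interneurons 5.26 and 5.28, Adarb2 cells 2.71 and 2.78 and neuroblasts 1.52 and 1.64. Snap25 was seen in 11.3% and 12.3% of thinned OPCs and in 8.62% and 10.6% of glutamatergic neurons. It was seen in 1.30% and 1.92% of astroglia and in 0% and 1.42% of microglia. The 0 was out of 120 cells at the thinned depth, so it does not limit how many microglia carry the transcript. OPCs lay above astroglia and microglia in both libraries, thinned or not. Without thinning, the Snap25 shares were 33.4% and 40.7% of OPCs, 6.06% and 6.43% of astroglia, 6.98% and 1.41% of microglia and 23.4% and 34.2% of glutamatergic neurons. The median depth before thinning was 8507 and 9333 UMIs in OPCs, 9025 and 9898.5 in astroglia, 6355 and 7172.5 in glutamatergic neurons and 12068 and 14036 in microglia.

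**Figure D2:**
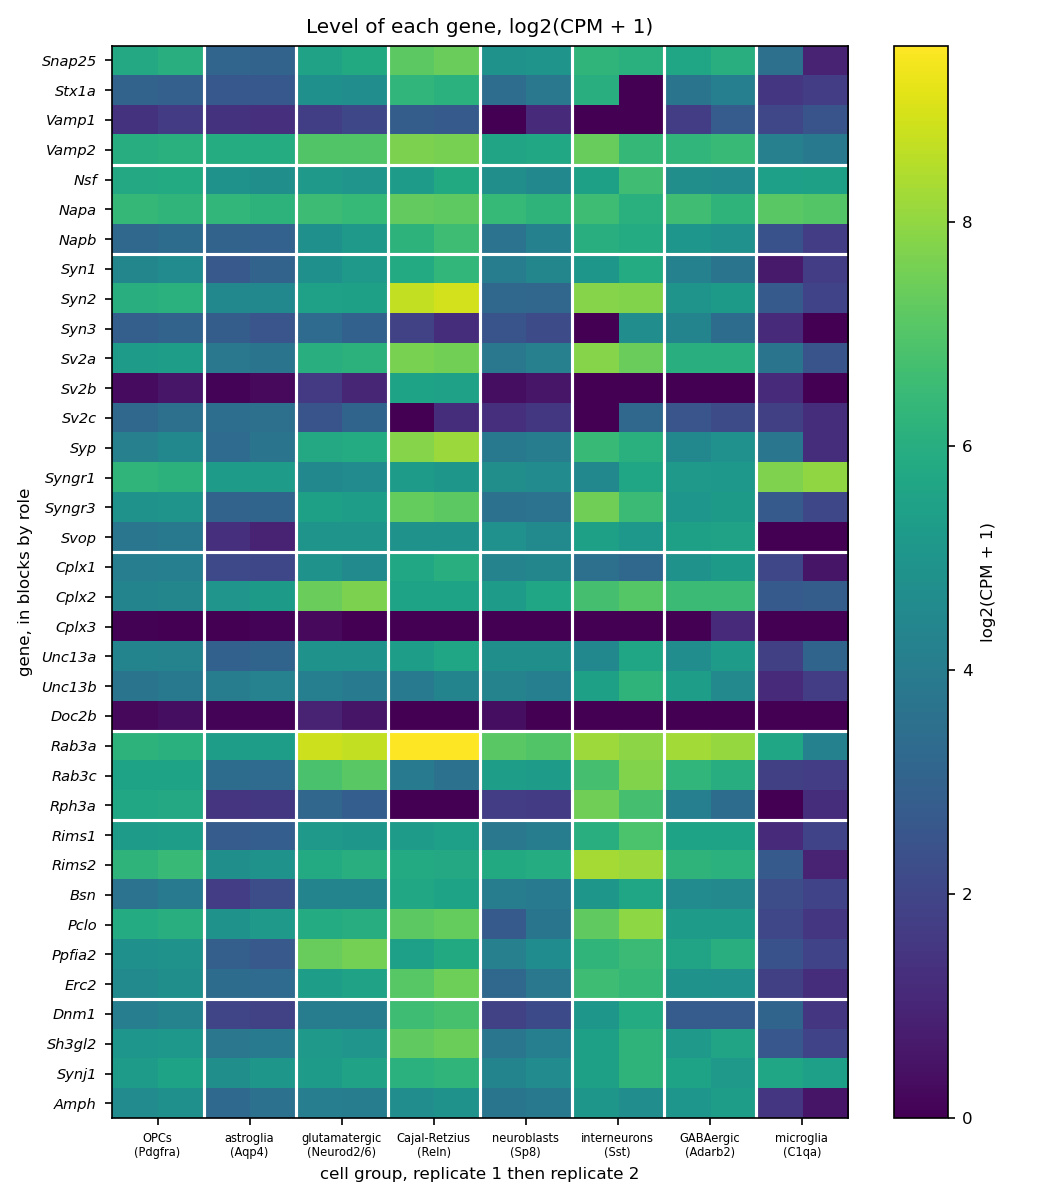
Level of each of the 36 genes, as log2(CPM + 1), in blocks by role (white horizontal lines) and by cell group, with replicate 1 and replicate 2 side by side. Cajal-Retzius cells are the brightest of the 7 groups for 15 of 36 genes in both libraries, while Rph3a is dark there and bright in OPCs and Sst interneurons, and Syngr1 is brightest in microglia.

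OPCs were compared first with astroglia, the other large glial group, to ask which parts of the release machinery differ between glia of the same libraries. OPCs held higher levels of genes for every role, most of all the Rab3 effector Rph3a, the vesicle transporter-like protein Svop, the SNARE protein Snap25 and the active zone scaffold Rims1. Of the 34 members tested, 24 were higher in OPCs, 3 were lower and 7 were not called, at an adjusted p of 0.05 in edgeR's quasi-likelihood test. Over all 13643 genes tested 70.1% were called, 36.3% higher and 33.8% lower. The median log2 fold change was 1.165 over the members and 0.03 over all genes.

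Within the SNARE core only Snap25 was called. It stood at 53.3 and 64.6 CPM in OPCs and at 7.62 and 7.31 CPM in astroglia, with 10.6 and 0.932 CPM in microglia. Both OPC values lay far above all glial others, and the log2 fold change was 2.82 ± 0.08 (SE; adjusted p = 1.12e-68, edgeR). Its partners were not called: Vamp2 was at 61.8 and 67.1 CPM in OPCs and 60.0 and 60.3 CPM in astroglia, and Stx1a at 7.29 and 6.64 CPM against 5.18 and 5.17 CPM. Vamp1 also missed the threshold. Of the genes for taking the complex apart, the ATPase Nsf was higher (53.3 and 57.6 against 28.5 and 26.3 CPM) and the neuronal adaptor Napb was not called. The adaptor Napa was called lower by a small amount (log2 fold change -0.10 ± 0.04), but its mean CPM was higher in OPCs than in astroglia. The direction for Napa thus differed between the fit and the CPM.

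Rph3a, rabphilin, binds Rab3 on the vesicle and had the largest difference. Its level was 52.7 and 53.2 CPM in OPCs, 1.80 and 1.94 CPM in astroglia, 7.86 and 6.20 CPM in glutamatergic neurons and 0 and 1.40 CPM in microglia. OPCs stood above glutamatergic neurons as well as the other glia in both libraries. The log2 fold change against astroglia was 4.64 ± 0.13 (adjusted p = 4.06e-71, edgeR). Rab3c, one of the vesicle GTPases, followed the same direction at 45.6 and 45.7 against 9.35 and 9.25 CPM, and Rab3a, the other, at 71.8 and 66.8 against 39.0 and 38.7 CPM.

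The 250 bases before a start site of Rph3a, the member with the largest difference between OPCs and astroglia, are shown. RefSeq lists 3 starts for it, and this window belongs to 1 of them, on the minus strand of GRCm38.p6 at chr5:121009539-121009788, inside the gene as GENCODE M21 draws it. Capitals mark the letters GGTGCTG (the reverse complement of CAGCACC) and GCTGTCC (the reverse complement of GGACAGC), which overlap. CAGCACC and GGACAGC are short pieces of the left and right arms of RE1, the element that the repressor REST binds at many neuronal genes. Because the matches here share letters, they cannot stand for both arms of the same element.
Rph3a: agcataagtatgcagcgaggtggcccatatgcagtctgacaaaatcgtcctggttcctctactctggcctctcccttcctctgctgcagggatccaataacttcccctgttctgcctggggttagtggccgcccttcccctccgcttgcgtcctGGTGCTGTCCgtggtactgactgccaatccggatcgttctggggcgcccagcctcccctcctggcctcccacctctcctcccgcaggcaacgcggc
Searching both strands of the same window, CAGCACC was found for 4 of 29 members with a listed promoter (Napa, Rph3a, Sv2c and Syn1), against 6.557% of 27025 genes. GGACAGC was found for 1 of them, Rph3a, against 6.135% of genes. The longer right arm, GGACAGCGC, was found for none of the members and for 0.3626% of genes. The GC box core GGGCGG was found for 65.52% of the members and 35.36% of genes. A match describes letters only. Windows of Rph3a, Syn1 and Unc13a were considered for printing, and only those with a match to CAGCACC or GGACAGC are printed. Unc13a and the other starts of Rph3a had no match. Vamp2, Syn3, Syngr3, Snap25, Rims2, Doc2b and Svop had no entry.

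Vesicle membrane genes and synapsins, which tether vesicles in a reserve pool, were mostly higher in OPCs, with 7 of 10 called and none lower by edgeR. Svop stood at 12.7 and 13.8 CPM in OPCs and at 1.44 and 0.906 CPM in astroglia, with 0 UMIs in the microglia of either library (log2 fold change 3.34 ± 0.18, adjusted p = 1.61e-37). Syn2 stood at 64.6 and 67.9 CPM against 21.3 and 21.2 CPM. Both genes were separated between the groups in each library. Synaptogyrin genes Syngr1 and Syngr3, Syn1, the vesicle glycoprotein gene Sv2a and the synaptophysin gene Syp were the other members called higher, and Syn3, Sv2b and Sv2c were not called.

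All 6 active zone genes were higher in OPCs. Rims1, which links Rab3 to the priming machinery, stood at 36.9 and 40.0 CPM against 5.90 and 6.34 CPM, and Rims2, its relative, at 74.2 and 86.2 against 26.2 and 29.0 CPM. The large scaffold Bsn stood at 11.7 and 14.4 against 2.30 and 3.75 CPM. Pclo, Ppfia2 (a liprin) and Erc2 were also higher, so the whole scaffold list was shifted. All 4 retrieval genes were higher too, from the dynamin gene Dnm1 at 16.0 and 18.5 against 3.02 and 2.65 CPM to Synj1 (synaptojanin) at 38.7 and 45.7 against 26.0 and 32.4 CPM.

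Release regulators moved in both directions. The complexin gene Cplx1 (16.0 and 16.4 against 3.31 and 3.23 CPM) and the priming gene Unc13a (18.8 and 18.3 against 6.76 and 7.57 CPM) were higher in OPCs. Cplx2 was lower, at 18.8 and 19.8 CPM in OPCs against 30.8 and 36.3 CPM in astroglia (log2 fold change -0.97 ± 0.07, adjusted p = 8.27e-28, edgeR). Unc13b was lower as well, at 11.8 and 13.7 against 15.7 and 17.9 CPM (log2 fold change -0.57 ± 0.10, adjusted p = 9.03e-08, edgeR). Paralogs of both families were thus called in opposite directions.

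Markers of neurons in general moved with these levels. A list of 9 such genes, none at 0 in the groups named here, summed to 1046 and 1133 CPM in OPCs, 430 and 437 CPM in astroglia, 233 and 135 CPM in microglia and 4490 and 4273 CPM in glutamatergic neurons. Its part in the result was not tested. With doublets called by Scrublet also removed, 4.99% and 3.63% of the OPCs were dropped, and every named member kept its direction and call in this contrast.

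Glutamatergic neurons were then set against OPCs, to show where a neuron exceeds a glial cell that already holds these transcripts. Rab3a, Cplx2 and the liprin gene Ppfia2 were far higher in the neurons, whereas Rph3a, Syngr1 and Nsf were higher in OPCs. Of 34 members, 19 were higher in the neurons, 8 lower and 7 not called, where 68.0% of all genes tested were called, 33.3% higher and 34.7% lower. The median log2 fold change was 0.565 over the members. Comparisons named here share groups: the OPC sums enter both contrasts above, and the glutamatergic sums enter most of those below.

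Cplx2, a fusion regulator, stood at 167 and 203 CPM in the neurons and 18.8 and 19.8 CPM in OPCs (log2 fold change 3.34 ± 0.06, adjusted p = 2.43e-98, edgeR). Rab3a stood at 461 and 415 against 71.8 and 66.8 CPM (2.73 ± 0.04, adjusted p = 1.55e-107). Ppfia2 stood at 162 and 190 against 27.3 and 28.5 CPM (2.74 ± 0.06, adjusted p = 1.6e-85). Neurons and OPCs did not overlap for any of these genes. Sv2b was also higher, but at only 2.06 and 1.06 CPM. Stx1a (26.9 and 25.1 CPM in the neurons), Napb (26.9 and 35.7), Syp (53.5 and 58.0) and Rab3c (113 and 140) were the next furthest above OPCs with log2 fold changes from 1.56 to 1.97.

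In the opposite direction, Rph3a was lower in the neurons by a log2 fold change of -2.86 ± 0.13 (adjusted p = 8.88e-46, edgeR). Syngr1, a vesicle membrane protein, stood at 21.3 and 23.6 CPM in the neurons against 75.1 and 69.5 CPM in OPCs (-1.60 ± 0.08, adjusted p = 8.19e-40). Nsf stood at 35.4 and 30.8 against 53.3 and 57.6 CPM (-0.68 ± 0.08, adjusted p = 3.03e-13). OPCs were thus higher in both libraries for a Rab3 effector, a vesicle protein and the ATPase.

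Syn2, Sv2c, Rims2, Amph (amphiphysin) and Snap25 completed the lower members. Syn2 was at 43.8 and 42.2 CPM in the neurons against 64.6 and 67.9 CPM in OPCs, a log2 fold change of -0.56 ± 0.07 that held under every alternative that gave a test. Snap25 was at 44.3 and 55.6 CPM against 53.3 and 64.6 CPM. These values overlapped between the groups, and the call (log2 fold change -0.16 ± 0.07, adjusted p = 0.0323, edgeR) was lost under 7 alternatives, with an adjusted p up to 0.691. Both genes were singled out after their values were seen. Rims1, Pclo, Dnm1, Sh3gl2 (endophilin), Synj1, Syn3 and Vamp1 were not called.

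**Figure D3:**
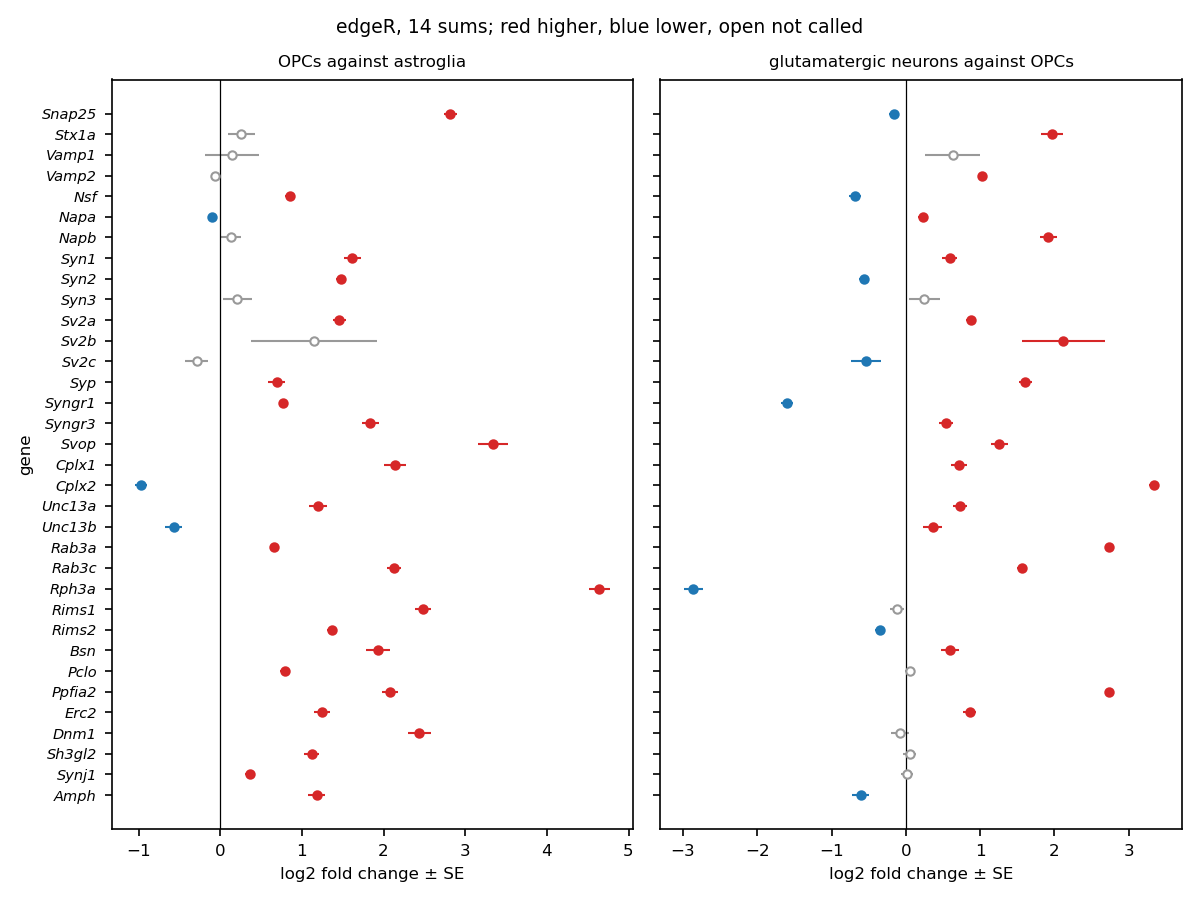
Log2 fold change with its SE of each of the 34 tested genes for OPCs against astroglia (left) and for glutamatergic neurons against OPCs (right). Red points are called higher, blue points lower and open points not called, and Rph3a lies at 4.64 on the left and -2.86 on the right.

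Against astroglia, glutamatergic neurons held higher levels of 27 of 34 members, with 2 lower and 5 not called. In that comparison 74.2% of all genes were called, 36.7% higher and 37.4% lower. The median log2 fold change was 2.08 over the members. Ppfia2 (162 and 190 against 6.40 and 5.37 CPM, log2 fold change 4.82 ± 0.09, adjusted p = 6.08e-92 by edgeR) and Svop (30.1 and 30.2 against 1.44 and 0.906 CPM, 4.59 ± 0.19) were furthest apart. Syngr1 and Sv2c were the members called higher in astroglia, and Vamp1, Nsf, Napa, Syn3 and Unc13b were not called.

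Cajal-Retzius cells, which at P3 are among the oldest neurons of the cortex, were set against the glutamatergic neurons. Their levels were higher for the SNARE, vesicle membrane and retrieval genes, most of all Sv2b, Syn2 and Dnm1, and lower for Rab3c, Rph3a, Cplx2, Ppfia2, Syn3 and Sv2c. By edgeR 23 of 34 members were higher, 6 lower and 5 not called (Vamp1, Svop, Unc13b, Rims1 and Rims2). Of all genes tested 51.8% were called, 25.6% higher and 26.2% lower. The median log2 fold change was 0.80 over the members and -0.08 over all genes.

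Sv2b, a vesicle glycoprotein gene, stood at 46.5 and 43.5 CPM in Cajal-Retzius cells and at 2.06 and 1.06 CPM in glutamatergic neurons (log2 fold change 4.88 ± 0.39, adjusted p = 6.66e-23, edgeR). It was below 1 CPM in OPCs, astroglia and neuroblasts and had 0 UMIs in Sst interneurons and Adarb2 cells. Syn2 stood at 409 and 489 CPM against 43.8 and 42.2 CPM (3.40 ± 0.08, adjusted p = 4.55e-79). Dnm1, the membrane-cutting GTPase, stood at 96.6 and 110 against 15.2 and 15.9 CPM (2.74 ± 0.15, adjusted p = 7.02e-38). For all 3 genes the Cajal-Retzius level was the highest of the 7 groups in both libraries. Syp reached 229 and 278 CPM, Rab3a 762 and 758 CPM, and Snap25 144 and 168 CPM in these cells.

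Rab3c went the other way, at 14.1 and 11.2 CPM against 113 and 140 CPM (log2 fold change -3.35 ± 0.20, adjusted p = 3.36e-25, edgeR). Rph3a had 0 UMIs in the Cajal-Retzius cells of both libraries and 83 UMIs in the glutamatergic neurons. Counted against 3 UMIs over both libraries, it was at least 5.93-fold lower. Sv2c had 2 UMIs, a ratio of 8.04 (95% interval 2.15 to 67.6, counting error only) in favour of the glutamatergic neurons. The related GTPase gene Rab3c and the Rab3 effector gene Rph3a were thus low where Rab3a was highest. Cajal-Retzius cells were deeper than the others, with median UMIs of 17058 and 17396 per cell. Levels are scaled to total UMIs, and the part of depth was not tested.

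Neuroblasts held lower levels of most members than glutamatergic neurons. Among the 34, 23 were lower and 11 not called, where 51.6% of all genes tested were called, 25.7% higher and 25.8% lower. No member was called higher by edgeR or by DESeq2, and 1 was higher at an unadjusted p under 0.05. The median log2 fold change was -1.0. All 4 SNARE core genes, Rab3a, Rab3c and Rph3a were lower, but Vamp1 rested on 0 and 5 UMIs in neuroblasts against 13 and 21 in glutamatergic neurons. The strongest were Ppfia2 (16.9 and 24.5 CPM, log2 fold change -2.89 ± 0.10, adjusted p = 2.63e-57), Pclo (5.53 and 12.1 CPM against 59.1 and 62.3, -2.55 ± 0.16, adjusted p = 4.72e-33) and Syn2 (8.44 and 8.01 CPM, -2.20 ± 0.17, adjusted p = 3.3e-24). Each stood below the glutamatergic range in both libraries.

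Other members did not separate neuroblasts from glutamatergic neurons. Rims2 stood at 55.3 and 60.2 CPM against 56.3 and 63.3 CPM, Unc13a at 26.2 and 26.5 against 29.2 and 29.6 CPM, and Svop at 27.9 and 23.1 against 30.1 and 30.2 CPM. Nsf, Napa, Sv2b, Syngr1, Cplx1, Unc13b, Bsn and Amph also missed the threshold. These include both tested Unc13 genes and a scaffold of the active zone. Neuroblasts also held the most division transcripts of the 7 groups: 8 genes of cell division, none at 0, summed to 3899 and 3831 CPM there and to 348 and 283 CPM in glutamatergic neurons. The part of division in the lower levels was not tested.

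**Figure D4:**
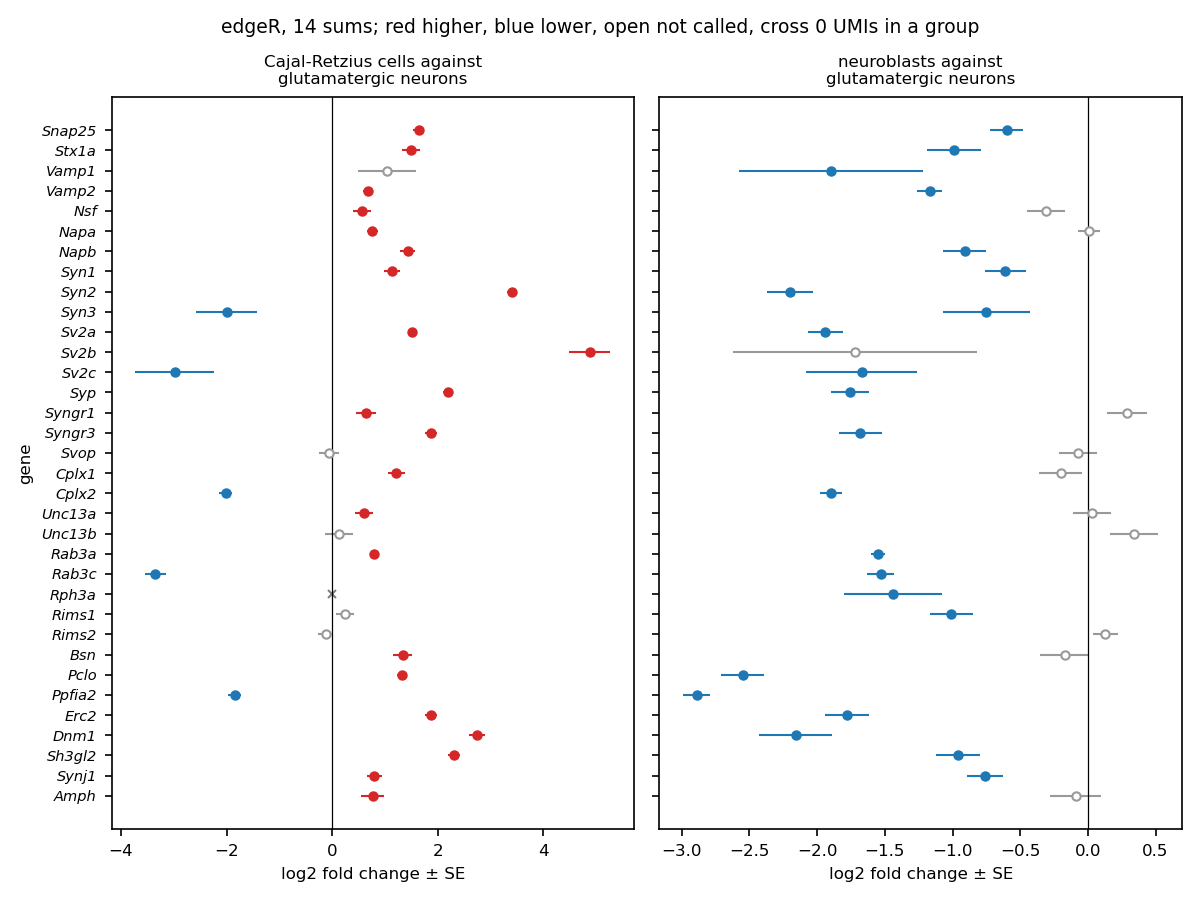
Log2 fold change with its SE of the 34 tested genes for Cajal-Retzius cells (left) and for neuroblasts (right), both against glutamatergic neurons. Red points are called higher, blue points lower and open points not called; the cross at 0 marks Rph3a, which had 0 UMIs in Cajal-Retzius cells, so that no fold change is drawn.

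Adarb2 cells held less Ppfia2, Syp and Cplx2 than glutamatergic neurons and more Amph. Against glutamatergic neurons 3 members were higher, 11 lower and 20 not called, with 16.8% of all genes called, 8.11% higher and 8.68% lower, and a median log2 fold change of -0.045. Amph (31.6 and 39.4 against 15.9 and 15.6 CPM, log2 fold change 1.21 ± 0.24, adjusted p = 2.11e-05, edgeR), Unc13b (39.8 and 21.5 against 16.7 and 14.8 CPM, 1.00 ± 0.26) and Svop (42.2 and 45.3 against 30.1 and 30.2 CPM, 0.56 ± 0.20) were higher. In microglia, whose markers were raised in replicate 1 of the Adarb2 cells, none of these 3 genes exceeded 2.33 CPM. The part of microglial transcripts in this comparison was not tested. The Svop call was lost under 7 alternatives, and that of Unc13b with a gate of 4 UMIs. The lowest were Ppfia2 (46.8 and 64.4 CPM, -1.64 ± 0.14, adjusted p = 1.2e-20), Dnm1 (5.85 and 5.97 CPM, -1.36 ± 0.41, adjusted p = 0.0107) and Syp (21.1 and 27.4 CPM, -1.17 ± 0.22, adjusted p = 4.57e-06). Dnm1 missed the threshold at a gate of 4 UMIs, where 8 rather than 14 members were called.

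Neuroblasts against Adarb2 cells gave 20 lower members, none higher and 14 not called, where 23.2% of all genes were called, 13.4% higher and 9.77% lower. No member was higher by DESeq2 or at an unadjusted p under 0.05 in edgeR. The median log2 fold change was -0.79. Rph3a (2.33 and 2.18 against 16.4 and 9.55 CPM, log2 fold change -2.36 ± 0.49, adjusted p = 4.09e-05) and Sv2a (13.1 and 17.2 against 63.2 and 65.6 CPM, -1.91 ± 0.21, adjusted p = 5.47e-14) stood apart in both libraries. Vamp1 was lower too, but from 5 UMIs in the neuroblasts, and its call was lost under 5 alternatives.

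Sst interneurons held the highest Rims2 of all groups, at 311 and 281 CPM, and the highest Rph3a, at 182 and 107 CPM. Against glutamatergic neurons 8 members were higher (Syn2, Sv2a, Syngr3, Unc13b, Rph3a, Rims1, Rims2 and Pclo), 2 lower (Rab3a and Ppfia2) and 24 not called, with 8.51% of all genes called, 3.83% higher and 4.68% lower. The log2 fold change was 4.17 ± 0.41 for Rph3a (adjusted p = 4.74e-16, edgeR), 2.19 ± 0.28 for Syn2 (adjusted p = 2.09e-10) and 2.12 ± 0.24 for Rims2 (adjusted p = 7.63e-13). Rab3a was lower, at 289 and 240 CPM (-0.90 ± 0.19), as was Ppfia2, at 75.0 and 90.9 CPM (-1.25 ± 0.31). With a gate of 1 UMI the split was 5 higher and 5 lower. Markers of OPCs, where Rph3a, Rims2 and Syn2 are also high, were raised in this group. A list of 6, none at 0, summed to 697 and 644 CPM in Sst interneurons, 262 and 197 CPM in glutamatergic neurons, 315 and 205 CPM in Adarb2 cells and 4487 and 4460 CPM in OPCs. OPCs themselves held 52.7 and 53.2 CPM of Rph3a, 74.2 and 86.2 CPM of Rims2 and 64.6 and 67.9 CPM of Syn2. The part of OPC transcripts in the levels of the Sst interneurons was not tested.

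Against Adarb2 cells 10 members were higher in Sst interneurons and 24 not called, with 7.15% of all genes called, 3.17% higher and 3.98% lower. None was lower by edgeR or DESeq2, and 1 was at an unadjusted p under 0.05. Rph3a (log2 fold change 3.24 ± 0.43), Dnm1 (2.77 ± 0.70) and Syn2 (2.53 ± 0.33) were furthest apart, and Sv2a, Syp, Syngr3, Rab3c, Rims2, Pclo and Erc2 were the others. At a gate of 1 UMI 6 members were called. With so few cells several values differed widely between libraries, such as Stx1a at 64.3 and 0 CPM. The median mitochondrial share was 5.49% and 5.61% in these cells, against 2.81% and 3.13% in glutamatergic neurons, and its part was not tested. Scaling moved the all-gene median of the comparison with glutamatergic neurons by 0.128 on the log2 scale, and 45.0% of genes had a higher estimate with TMM, 57.7% with RLE and 71.5% with DESeq2. Against Adarb2 cells the shift was 0.104 and the shares were 44.4%, 54.3% and 65.0%.

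Each member also has a leading group. Cajal-Retzius cells held the highest level in both libraries for 15 of 36 members, Sst interneurons for 5 (Unc13b, Rph3a, Rims1, Rims2 and Pclo), glutamatergic neurons for 3 (Cplx2, Ppfia2 and the sparse Doc2b), OPCs for Syngr1 and astroglia for Sv2c. For 11 members the libraries named different groups. Leaving the Sst interneurons out, OPCs led for Nsf and Rph3a as well, Adarb2 cells for Syn3, Svop, Unc13b, Rims1 and Amph, and Cajal-Retzius cells for 20. Neuroblasts led for no member in either ranking. The members that could not be tested were rare everywhere. Cplx3 did not exceed 1.19 CPM in any sum and Doc2b did not exceed 0.935 CPM, in glutamatergic neurons.

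Paralogs divided the UMIs of their family differently from group to group, with levels compared as shares of UMIs that carry no correction for length. In 5 of 10 families the leading gene changed between groups (synapsins, complexins, Unc13, Bsn with Pclo, and synaptogyrins). These shares are descriptions, without a test.

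Synapsin transcripts were Syn2 for 87.3% and 85.9% in Cajal-Retzius cells, 71.0% and 68.7% in OPCs and 54.9% and 50.1% in glutamatergic neurons. Neuroblasts turned this around, with Syn1 at 54.5% and 63.4% and Syn2 at 29.3% and 25.2%. Syn1 is the synapsin whose regulation by REST is best known. The 250 bases before its RefSeq start, on the minus strand at chrX:20920919-20921168 of GRCm38.p6, are shown with the letters CAGCACC in capitals.
Syn1: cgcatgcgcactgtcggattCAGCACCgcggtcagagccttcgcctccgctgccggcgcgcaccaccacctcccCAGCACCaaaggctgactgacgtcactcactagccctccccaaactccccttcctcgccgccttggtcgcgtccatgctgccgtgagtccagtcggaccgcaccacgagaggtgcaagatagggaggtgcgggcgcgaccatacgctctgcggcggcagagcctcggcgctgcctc
The first match is part of TTCAGCACC, the longer left arm of RE1, which was found for 1 of 29 members (Syn1) and for 0.3478% of 27025 genes. Syn1 stood at 19.9 and 23.6 CPM in OPCs, 5.39 and 7.18 CPM in astroglia, 26.8 and 35.2 CPM in glutamatergic neurons and 57.1 and 79.2 CPM in Cajal-Retzius cells. Its level was lowest in astroglia among the 7 groups in both libraries.

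Among complexins, Cplx1 gave 52.3% and 58.9% of the UMIs in Cajal-Retzius cells and 46.0% and 45.3% in OPCs. It gave 14.9% and 9.79% in glutamatergic neurons, where Cplx2 gave the rest but for 1 UMI of Cplx3. In astroglia Unc13b made up 70.0% and 70.3% of Unc13 transcripts, while Unc13a led in OPCs, glutamatergic neurons, Cajal-Retzius cells and neuroblasts. Astroglia also had the largest Sv2c share of the Sv2 family, 43.0% and 47.1%, and Cajal-Retzius cells the largest Sv2b share, 19.0% and 18.7%.

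Rab3c gave 38.8% and 40.6% of the 2 Rab3 genes' transcripts in OPCs but 1.81% and 1.46% in Cajal-Retzius cells. Bsn gave 73.2% and 54.5% of the Bsn and Pclo transcripts in neuroblasts, against 24.2% and 23.4% in glutamatergic neurons. Syngr1 gave most synaptogyrin UMIs in OPCs, astroglia and neuroblasts, and Syngr3 most in glutamatergic neurons and Cajal-Retzius cells. Vamp2 and Napa led their families in every group.

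**Figure D5:**
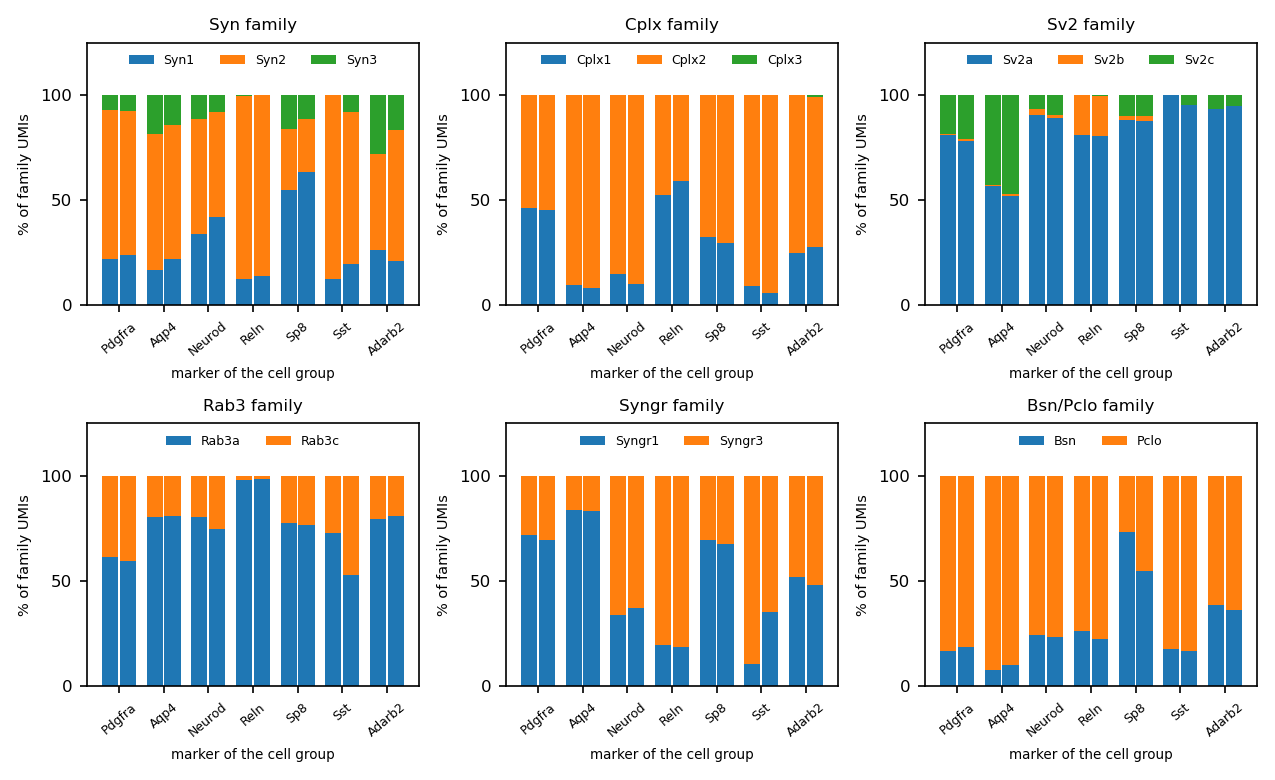
Share of each paralog in the UMIs of its family (percent, stacked to 100) by cell group, named by its marker, with replicate 1 on the left and replicate 2 on the right of each pair. Syn2 gives 87.3% and 85.9% of synapsin UMIs in the Reln group, and Rab3c 1.81% and 1.46% of Rab3 UMIs there.

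A list of 65 other genes of the pathway, of which 62 were tested, is given beside the members. In OPCs against astroglia 34 were higher and 20 lower, where 36.3% of all genes were higher and 33.8% lower. Over this list the median log2 fold change was 0.21, beside 1.165 over the members and 0.03 over all genes. Rims4, a short RIM, stood at 10.8 and 11.5 against 0.503 and 0.712 CPM (3.99 ± 0.26), and the endophilin gene Sh3gl3 at 140 and 138 against 9.42 and 6.53 CPM (3.97 ± 0.07). Tprgl, a presynaptic protein gene, was lower in OPCs, at 142 and 141 against 237 and 231 CPM (-0.90 ± 0.03). Genes of this list were thus called in both directions.

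Against OPCs, glutamatergic neurons were higher for 34 and lower for 18 of these genes, where 33.3% of all genes were higher and 34.7% lower. Unc13c, a priming gene, was at 2.43 and 1.36 CPM in the neurons and 24.1 and 22.7 CPM in OPCs (-3.58 ± 0.21), and Rab27b, a secretory GTPase, at 3.93 and 2.12 against 18.3 and 19.4 CPM (-2.61 ± 0.21). Rab3d went the other way, at 18.0 and 17.7 against 2.20 and 2.24 CPM (3.07 ± 0.21). Of the 13 subunits of the vesicular proton pump, which fills vesicles by acidifying them, 11 were higher in the neurons and none lower by edgeR. The shift was small, with a median log2 fold change of 0.26 over the 13. In Cajal-Retzius cells 36 of the 62 were higher and 7 lower than in glutamatergic neurons, where 25.6% of all genes were higher and 26.2% lower. The higher ones included 12 of the 13 pump subunits, whose median log2 fold change was 0.76. Pacsin1, which acts in membrane retrieval, led them at 103 and 98.1 against 9.17 and 6.35 CPM (3.72 ± 0.20). In neuroblasts 5 were higher and 37 lower than in glutamatergic neurons, where 25.7% of all genes were higher and 25.8% lower. Synpr, synaptoporin, led the higher ones at 50.6 and 57.8 against 4.12 and 4.68 CPM (3.80 ± 0.22).

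Annotation adds a limit to some of these levels. All 36 members are protein-coding genes of GENCODE M21 on mm10, and none shares exon sequence with a gene on its own strand. For 13 of them, Syn1, Syn2, Syn3, Sv2b, Rab3a, Ppfia2 and Syp included, an exon overlaps a gene on the other strand. No source used here states whether the deposited counts used strand, so for these 13 reads of the partner cannot be told apart. Rph3a (chromosome 5, 120940499 to 121010092), Snap25 (chromosome 2, 136713453 to 136782428), Syngr1 (chromosome 15, 80091334 to 80119501) and Rab3c (chromosome 13, 110054187 to 110280996) are free of such overlaps.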

How the data were processed

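Per the file headers, the authors deposited raw UMI counts from Cell Ranger 6.0.2. Seurat 4.1.0, R 4.1.0 and the build mm10 stand in the submitters' processing notes without a role. No source used here gives the annotation release.

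Replicate 1 held 13858 barcodes with 97091962 UMIs and replicate 2 held 14513 with 108903409. Barcodes with at least 500 genes and at most 10% mitochondrial UMIs were kept (11228 and 10965). Scrublet doublets (862 and 778) were removed only as an alternative. At least 2 UMIs of more than 1 group's marker were seen in 737 and 885 cells. That count includes Reln, which the rule on other markers exempts, so not all of them were dropped by it.

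Counts were summed per library and group into 14 sums and fitted with edgeR 4.0.16 in R 4.3.3 (quasi-likelihood test, TMM, filterByExpr, 6 residual degrees of freedom, Benjamini-Hochberg over all 13643 genes at 0.05). Library was a block because all sums of 1 library share their sort and capture. DESeq2 1.42.0, other scaling, filters and gates were alternatives. The edgeR fit was tested on simulated data. CPM scale a gene's UMIs to all UMIs of the group. Intervals and limits (3 UMIs) are exact at 95% and cover counting error only. Members given with full statistics were the 3 highest and 3 lowest called per contrast with the same direction in both libraries, and for other pathway genes the 2 highest and 2 lowest, of which some are printed. Members and lists were chosen with earlier results of these data known. The labels do not say if separate animals stand behind the libraries, so p-values reflect only how these samples vary, perhaps for technical reasons. Promoter sequences are from RefSeq (GRCm38.p6). Python 3.11.15, scanpy 1.11.5, scipy 1.17.1 and matplotlib 3.10.9 were used.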

Additional observations from a re-analysis of the deposited data

How the results depend on the processing

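No named fold change reversed under any alternative, and 14 of 78 lost their call under at least 1, among the members Snap25 in glutamatergic neurons against OPCs, Svop, Dnm1 and Unc13b in Adarb2 cells against glutamatergic neurons and Vamp1 in neuroblasts against Adarb2 cells. Fits without the replicate block called 25 members (27 with it) in glutamatergic neurons against OPCs and 11 (14 with it) in Adarb2 cells against glutamatergic neurons. Of the named members, Snap25, Svop and Vamp1 lost their calls without it. With a gate of 4 UMIs 8 members were called in Adarb2 against glutamatergic cells, and with a gate of 1 UMI 6 in Sst interneurons against Adarb2 cells. Leaving out each replicate in turn, which leaves no test, gave 1 to 2 members with a higher level in neuroblasts than in glutamatergic neurons.

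Summed levels moved by more than the SD between libraries in astroglia without Scrublet doublets (533.8 CPM), in neuroblasts at 4 UMIs (760.4), in Sst interneurons at 1 UMI (1782) and with the primary marker alone (2283), and in Adarb2 cells at 1 UMI (1351), at 4 UMIs (1809), without doublets (1548), at 5% mitochondrial UMIs (1419), at 1500 genes (1457) and with Sp8 allowed (1312). Members seen per cell, thinned to 1000 UMIs and not thinned, were 1.18 and 7.89 in OPCs, 0.555 and 4.16 in astroglia, 1.88 and 8.43 in glutamatergic neurons, 3.36 and 17.3 in Cajal-Retzius cells, 0.82 and 5.16 in neuroblasts, 3.02 and 8.93 in Sst interneurons and 1.59 and 5.48 in Adarb2 cells. Sst interneurons fell under 20 cells in a library at 4 UMIs, without doublets, at 5% mitochondrial UMIs and at 1500 genes, so those contrasts were not run there.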

Other observations

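Microglia should lack neuronal release genes, yet they held the highest Syngr1 of all groups examined, at 210 and 250 CPM against 75.1 and 69.5 CPM in OPCs. Syngr2, its widely expressed relative, stood at 166 and 144 CPM in microglia and at 10.0 and 8.68 CPM in OPCs. Snap23, the relative of Snap25 used in secretion outside neurons, stood at 62.6 and 55.5 CPM in microglia, 27.5 and 27.2 CPM in astroglia, 20.3 and 19.2 CPM in OPCs and 5.24 and 7.86 CPM in glutamatergic neurons. Glial groups with little Snap25 thus held more Snap23 than OPCs did in both libraries. Microglia were outside the model, so their levels were not tested.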
